A study of Mus musculus with 6 samples.

Results

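AP-1 and BATF transcription factors were described in mouse CD4 T cells that carried a Blimp-1 retrovirus or the empty vector. The 9 genes are Jun, Junb, Jund, Fos, Fosb, Fosl2, Batf, Batf3 and Atf3, taken by name from a table of 21996 genes. Each gene had 1 transcript row, and 7 of the 9 genes passed the filter on low values used for testing, with Fos and Fosb below it. There were 3 libraries in which the MigR1 vector carried the Blimp-1 cDNA and 3 with empty MigR1, all from wild-type C57/BL6 mice. Naive cells from spleen and lymph node were activated on antibodies to CD3 and CD28 with IL-4 and IFN-gamma blocked, for 36 hours before transduction and 2 days after it, although another label gives 3 days of activation. GFP-positive cells were sorted, so each library comes from transduced cells of a mixed culture and not from a clone, and Blimp-1 is expressed from the viral vector. The labels call the replicates independent and biological, without saying whether a number marks a mouse or a day.

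AP-1 is a dimer of basic leucine zipper proteins. A Jun protein pairs with itself, with a Fos protein or with an ATF or BATF protein, and the pair binds the AP-1 site or the related cyclic AMP response element (CRE). In T cells, antigen receptor signals induce Fos and Jun proteins through MAP kinases, and AP-1 binds with NFAT at cytokine genes. BATF and BATF3 lack a transactivation domain of their own and bind with Jun proteins, and together with IRF4 or IRF8 at composite sites. Blimp-1, the product of Prdm1, is a DNA-binding repressor. The comparison asks how its expression changes activated cells that were not polarised.

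Values are FPKM, reads scaled to the length of the transcript and the size of the library, so levels of different genes can be compared within a library and all values are shares of the RNA pool. Read depth, estimated from the steps between low values, was 33.5 to 45.6 M reads in the Blimp-1 libraries and 16.8 to 38.1 M in the empty vector libraries. Prdm1, which holds viral and endogenous transcripts together, measured 9.45 to 12.8 FPKM in Blimp-1 libraries and 0.996 to 2.03 FPKM in empty vector libraries. Empty vector replicate 3, which had the lowest depth, stood apart on the first principal component (52.1% of the variance), at 33.3 against -22.7 to 12.4 for the other 5 libraries. T cell markers summed to 1807 to 2007 FPKM with Blimp-1 and 1795 to 2136 FPKM with the empty vector. Markers of B, myeloid and CD8 T cells summed to 1.77 to 6.17, 2.28 to 3.41 and 7.94 to 11 FPKM with Blimp-1, against 1.88 to 5.29, 2.03 to 2.78 and 7.18 to 10.4 FPKM with the empty vector. NK cell markers summed to 13.7 to 35.3 FPKM with Blimp-1 and 3.34 to 28.4 FPKM with the empty vector, with Ncr1 at 0 in all libraries, and red cell precursor markers to 0.533 to 1.82 and 1.36 to 10.2 FPKM. The part of these cells in the results was not tested. In bulk RNA, fewer cells that express a gene and less RNA per cell cannot be told apart.

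The upstream sequence of these genes is shown because AP-1 and ATF proteins are known to bind their own promoters and Blimp-1 is a repressor that binds DNA. In the 250 bases before the RefSeq start, 4 of the 9 genes held 1 of 5 searched motifs, on either strand, and capitals mark the match in the windows of 40 bases. Coordinates are of GRCm38.p6, while the submitters' processing notes name mm9 for the data, and each sequence is written on the strand of the gene.
Fos, chr12:85473807-85473846, plus strand: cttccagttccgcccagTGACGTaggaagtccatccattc
Jun, chr4:95052244-95052283, minus strand: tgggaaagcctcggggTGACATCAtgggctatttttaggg
Batf, chr12:85686605-85686644, plus strand: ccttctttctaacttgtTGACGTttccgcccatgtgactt
Atf3, chr1:191183334-191183373, minus strand: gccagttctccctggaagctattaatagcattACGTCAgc
Batf3, chr1:191098164-191098413, plus strand, with no match: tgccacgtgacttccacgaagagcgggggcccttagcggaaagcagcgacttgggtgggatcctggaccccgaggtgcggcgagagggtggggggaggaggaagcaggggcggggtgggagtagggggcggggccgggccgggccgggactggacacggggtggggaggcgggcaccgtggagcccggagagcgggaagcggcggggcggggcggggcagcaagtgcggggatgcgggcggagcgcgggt

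Fos, Batf and Atf3 held the CRE core TGACGT, which 6.47% of 32851 promoter windows of the same length hold. In Fos it lay 66 to 61 bases before the start, in Batf 98 to 93 bases before it, and in Atf3, on the other strand, 8 to 3 bases before it. Jun held TGACATCA, a variant recognised by Jun and ATF proteins, 45 to 38 bases before its start, and 2.93% of windows hold these letters. The AP-1 site TGANTCA (6.75% of windows), the full CRE TGACGTCA (1.55%, and it contains the core) and AGNGAAAG, the core of the published Blimp-1 motif (7.3%), were in none of the 9 windows. The Batf3 window is printed whole because Batf3 had the largest difference between the vectors among the tested genes of this family. It was 76% G and C and held none of the 5 motifs.

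None of the 7 tested AP-1 and BATF genes was called as changed with Blimp-1 by limma with adjustment over all 10778 genes tested (adjusted p = 0.997 for each). With 3 libraries per vector this does not show that the levels were equal, and the 95% interval of each gene's fold change is given with its values. Prdm1, the gene the vector carries, was itself not called in this fit, at a log2 fold change of 2.26 (limma adjusted p = 0.056). The share of all genes called in this fit was 0% higher and 0% lower, so a count of 0 among the 7 genes is the background. There were 119 genes at an unadjusted p under 0.05, 1.1% of those tested, and none of the 7 was among them. The replicate numbers pair the libraries, and with the replicate number as a block the fit also called none of the 7 genes, against 0.00928% of all genes as higher and 0.00928% as lower. Batf3 and Atf3 were higher with Blimp-1 in 3 of 3 pairs, where 23% of all tested genes were higher in 3 of 3 pairs and 22.8% were lower.

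The cells expressed the family at very unequal levels, in an order that held in nearly all libraries. Junb was first at a mean of 115 FPKM over the 6 libraries, above 95% of tested genes. Jund followed at 77.7 FPKM, Batf at 39.1, Batf3 at 21.1, Fosl2 at 13.1, Jun at 5.97 and Atf3 at 3.61 FPKM. Fos and Fosb were last, at 0.663 and 0.139 FPKM. The order of each gene and the next was the same in 6 of 6 libraries, except that Junb was above Jund in 5 of 6. The ranges over libraries did not overlap between Jund and Batf, between Batf and Batf3 or between Fosl2 and Jun, and they overlapped between the other neighbours.

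**Figure D1:**
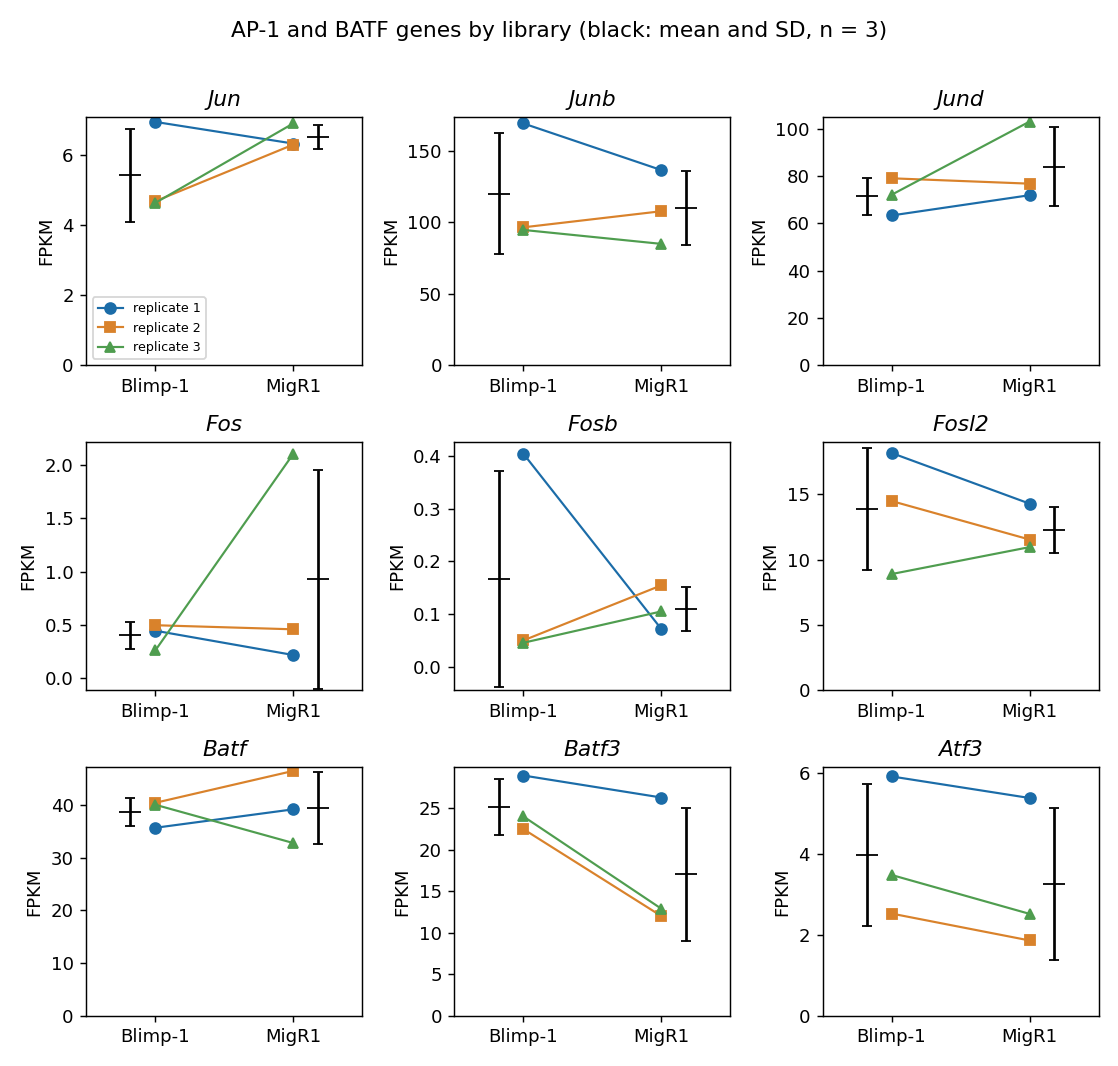
FPKM of the 9 AP-1 and BATF genes in the Blimp-1 and empty MigR1 libraries, with lines joining libraries of the same replicate number and black bars for the mean and SD (n = 3 per vector). The axis of each gene starts at or below 0. Batf3 and Atf3 lie higher with Blimp-1 in each pair, replicate 1 is highest with each vector for Junb, Fosl2, Batf3 and Atf3, and the high Fos value is that of empty vector replicate 3.

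Among the Jun proteins, the obligate partners of Fos and BATF, Junb carried most of the RNA. Junb encodes a Jun protein that is abundant in activated and effector T cells. It was at 169, 96.4 and 94.6 FPKM in Blimp-1 replicates 1 to 3, against 136, 108 and 84.9 FPKM in empty vector replicates 1 to 3. Replicate 1 was highest with each vector and the groups overlapped. The means were 120 ± 42.4 FPKM with Blimp-1 and 110 ± 25.8 FPKM with the empty vector (SD, n = 3 each). The log2 fold change was 0.10, with a 95% interval of -0.53 to 0.73 without the block and -0.15 to 0.35 with it. Without the block it was -0.17 when Blimp-1 replicate 1 was left out and -0.068 without empty vector replicate 3. It was 0.23 to 0.27 without Blimp-1 replicate 2 or 3 or empty vector replicate 1.

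Jund encodes the Jun protein that is known for steady expression in resting as well as growing cells. It was at 63.3, 79.1 and 72.1 FPKM in Blimp-1 libraries 1 to 3, against 71.9, 76.8 and 103 FPKM in those with empty MigR1. The highest value was that of empty vector replicate 3, and the other 5 libraries lay between 63.3 and 79.1 FPKM. The log2 fold change was -0.22, with a 95% interval of -0.61 to 0.18 without the block and -0.50 to 0.065 with it. Without the block it was -0.061 when empty vector replicate 3 was left out. Jun, the founding member of the family and a target of JNK kinases, was low in each library. It was at 6.95, 4.69 and 4.64 FPKM with Blimp-1 and at 6.34, 6.31 and 6.91 FPKM with the empty vector. Blimp-1 replicates 2 and 3 were below all other libraries, while Blimp-1 replicate 1 was the highest of the 6. The log2 fold change of Jun was -0.24, with a 95% interval of -0.63 to 0.14 without the block and -0.56 to 0.075 with it. Without the block it was -0.41 when Blimp-1 replicate 1 was left out.

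Summed over Jun, Junb and Jund, the family was at 197 ± 37 FPKM with Blimp-1 and 200 ± 12.8 FPKM with the empty vector (SD, n = 3 each). Junb made up 70.6%, 53.5% and 55.2% of this sum in Blimp-1 libraries 1 to 3, against 63.6%, 56.4% and 43.6% in those with empty MigR1. Jun made up 2.6% to 2.91% with Blimp-1 and 2.95% to 3.55% with the empty vector. The FPKM values of Jun itself overlapped between the groups, and the shares were not tested. The groups overlapped for the shares of Junb and Jund.

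**Figure D2:**
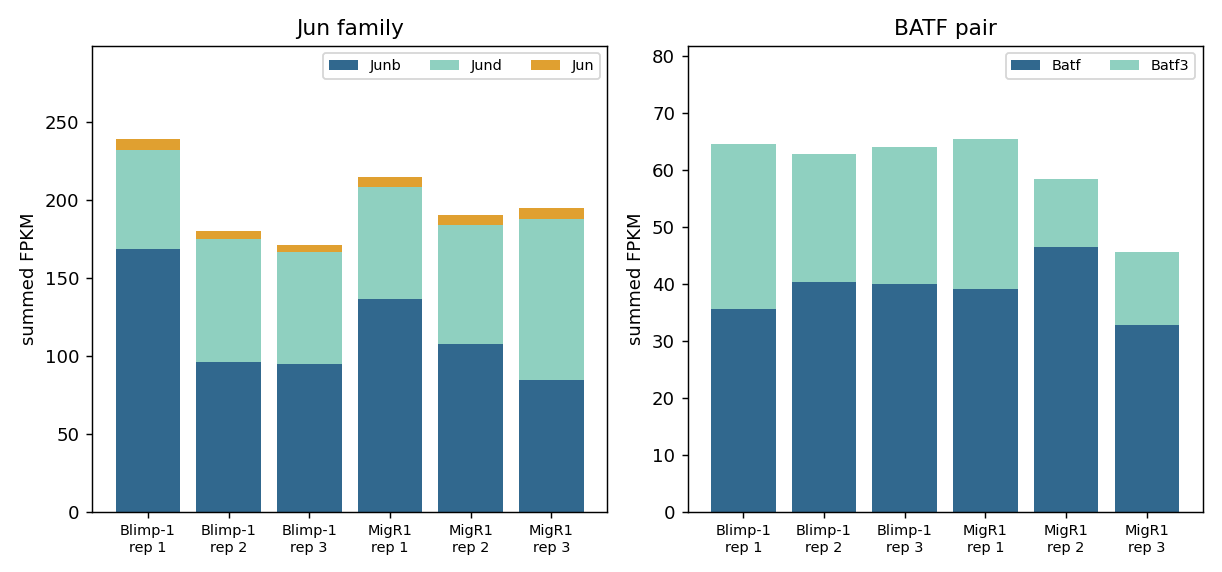
Stacked FPKM of Junb, Jund and Jun (left) and of Batf and Batf3 (right) in each Blimp-1 and empty MigR1 library. The Jun sum is highest in the replicate 1 libraries, and the sum of Batf and Batf3 is 62.9 to 64.6 FPKM with Blimp-1 and 45.6 to 65.5 FPKM with the empty vector.

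Of the Fos proteins, which cannot pair with themselves and need a Jun partner, Fosl2 supplied nearly all of the RNA. Fosl2, which encodes FRA-2, was at 18.2, 14.5 and 8.9 FPKM in Blimp-1 replicates 1 to 3, against 14.3, 11.5 and 11 FPKM in empty vector replicates 1 to 3. It was higher with Blimp-1 in pairs 1 and 2 and lower in pair 3, where the Blimp-1 library had the lowest value of the 6. The log2 fold change was 0.12, with a 95% interval of -0.46 to 0.70 without the block and -0.21 to 0.45 with it. Without the block it was -0.091 when Blimp-1 replicate 1 was left out and 0.39 without Blimp-1 replicate 3. Fosl2 made up 95.5% to 96.7% of the summed Fosl2, Fos and Fosb with Blimp-1, and 83.2% to 98% with the empty vector.

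Fos, the classical immediate-early gene, was near the floor of the data. It was at 0.445, 0.496 and 0.26 FPKM in Blimp-1 libraries, or about 40, 48 and 18 reads, against 0.217, 0.458 and 2.1 FPKM in empty vector libraries, or about 8, 37 and 75 reads. Only empty vector replicate 3 was above 1 FPKM, and without it the difference of mean log2(FPKM + 1) was 0.068, against -0.34 with all libraries. Fosb, a close relative of Fos, was at 0.404, 0.0503 and 0.0458 FPKM with Blimp-1 (about 65, 9 and 6 reads) and at 0.0717, 0.155 and 0.105 FPKM with the empty vector (about 5, 22 and 7 reads). The highest Fosb library was Blimp-1 replicate 1 and the groups overlapped. Neither gene reached 1 FPKM in 3 of the 6 libraries, so neither was tested in the fit reported. With the filter left out, the log2 fold change was -0.34 for Fos (limma unadjusted p = 0.376) and 0.058 for Fosb (0.651). Neither was called there. Fosl1, the fourth gene of the Fos family, was at 0.0144, 0.0133 and 0.0363 FPKM with Blimp-1, and was listed at 0 in empty vector replicates 1 and 2 and at 0.0715 FPKM in replicate 3.

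Batf and Batf3 encode the short leucine zipper proteins that in T cells act with Jun and IRF4. Batf was at 35.6, 40.4 and 40 FPKM in Blimp-1 replicates 1 to 3, against 39.1, 46.4 and 32.8 FPKM in empty vector replicates 1 to 3. The Blimp-1 values all lay inside the range of the empty vector values. Batf averaged 38.7 ± 2.64 FPKM with Blimp-1 and 39.4 ± 6.85 FPKM with the empty vector (SD, n = 3 each). The log2 fold change of -0.016 had a 95% interval of -0.38 to 0.35 without the block and -0.29 to 0.25 with it. Without the block its sign was positive with quantile normalization (0.0099), without Blimp-1 replicate 1 (0.041) and without empty vector replicate 2 (0.11). Batf2, another gene of the family, was listed at 0 in all 6 libraries.

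Batf3 is best known as a factor of cross-presenting dendritic cells and is also induced in activated T cells. It was at 29, 22.5 and 24 FPKM in Blimp-1 replicates 1 to 3, against 26.3, 12 and 12.9 FPKM in empty vector replicates 1 to 3. The Blimp-1 libraries were all at 22.5 FPKM or more, and empty vector replicate 1 was the only empty vector library in that range, so the groups overlapped through that library. The means were 25.2 ± 3.38 FPKM with Blimp-1 and 17.1 ± 8.02 FPKM with the empty vector (SD, n = 3 each), a ratio of 1.47. Log2 differences were 0.13, 0.85 and 0.85 in pairs 1, 2 and 3.

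The log2 fold change of Batf3 was 0.61, with a 95% interval of -0.054 to 1.28 without the block and 0.22 to 1.003 with it (limma adjusted p = 0.162). Without empty vector replicate 1 it was 0.95 (limma adjusted p = 0.982). Each of the 5 dendritic cell markers, Flt3, Zbtb46, Xcr1, Siglech and Itgax, was below 1 FPKM in all libraries. They summed to 1.35 to 1.62 FPKM with Blimp-1 and 1.02 to 1.26 FPKM with the empty vector, against the 12 to 29 FPKM of Batf3, and their part in the Batf3 difference was not tested. Batf3 supplied 44.8%, 35.8% and 37.5% of the summed Batf and Batf3 in Blimp-1 libraries 1 to 3, against 40.2%, 20.6% and 28.2% in those with empty MigR1. It was the larger share with Blimp-1 in 3 of 3 pairs, and the groups overlapped.

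Atf3 encodes a stress-induced ATF protein that pairs with Jun proteins and can repress transcription. It was at 5.91, 2.52 and 3.48 FPKM in Blimp-1 replicates 1 to 3, against 5.38, 1.86 and 2.51 FPKM in empty vector replicates 1 to 3. Both replicate 1 libraries were above the other 4, and within each pair the Blimp-1 library was higher, by 0.12, 0.30 and 0.35 on the log2 scale. The log2 fold change was 0.26, with a 95% interval of -0.56 to 1.07 without the block and 0.056 to 0.45 with it (limma adjusted p = 0.189). Without the block it was -0.011 when Blimp-1 replicate 1 was left out, 0.012 without empty vector replicate 2 and 0.59 without empty vector replicate 1. With the block, and with a whole pair left out, it was 0.33 without pair 1, 0.23 without pair 2 and 0.21 without pair 3. Batf3 and Atf3 were the 2 of the 7 tested genes at an unadjusted p under 0.05 with the block, where 20.4% of all genes tested were.

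**Figure D3:**
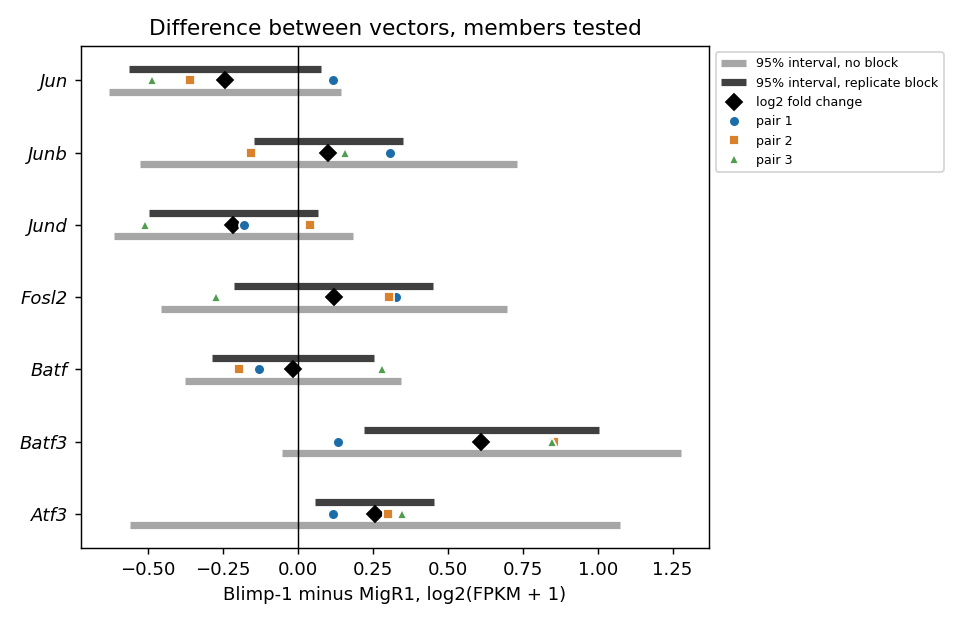
Blimp-1 minus empty MigR1 difference in log2(FPKM + 1) for the 7 tested genes, with a symbol for each replicate pair, a diamond for the log2 fold change, and bars for its 95% interval without (light) and with (dark) the replicate block. Pair symbols of Batf3 and Atf3 all lie above 0, and the light intervals of all 7 genes contain 0.

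Median log2 differences over the 7 tested genes were 0.12, 0.041 and 0.16 in pairs 1, 2 and 3, where medians over all tested genes were 0.0055, -0.00013 and -0.0071. In the blocked fit of pairs 1 and 2 alone, 508 genes were called higher (4.71% of all tested) and 620 lower (5.75%). Among the 7 tested genes of the family 2 rose there, Batf3 (log2 fold change 0.49, limma adjusted p = 0.012) and Fosl2 (0.32, adjusted p = 0.0136). Only 4 libraries enter that fit, which leaves 1 residual degree of freedom. When pair 1 or pair 2 was the pair dropped, the blocked fit called none of the 7 genes.

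For several genes of the family the replicate number separated the libraries far more than the vector did. Of the sum of squares of the 6 log2 values of Junb, the replicate number accounted for 89.6% and the vector for 2.24%. For Atf3 these shares were 91.4% and 7.48%, and for Fosl2 75.8% and 3.77%. Batf3 had the largest vector share of the 9 genes, at 42.3%, followed by Jun at 34.7% and Jund at 26%. In these 3 genes the replicate number accounted for 44.9%, 25.9% and 45.5%. Its share was 51.7% for Batf, 28.8% for Fos and 31.7% for Fosb. The replicate number sorts the libraries into more groups than the vector does, so its share tends to be larger even without any effect. The medians over all tested genes were 75.4% for the replicate number and 9.62% for the vector. Nr4a1, a nuclear receptor gene induced by antigen receptor signals, also had its highest values in the replicate 1 libraries. It was at 34.3 FPKM there with Blimp-1 and 15.7 FPKM with the empty vector. In replicates 2 and 3 it was at 3.27 and 3.92 FPKM with Blimp-1, against 1.59 and 2.22 FPKM with the empty vector. Nr4a2 and Nr4a3 were highest in replicate 1 too. Other immediate-early genes were not, and Egr1, Dusp2 and Btg2 were highest in replicate 2 with each vector. Within pairs, Nr4a1, Nr4a2 and Nr4a3 were each higher with Blimp-1 in 3 of 3, where 23% of all tested genes were. None of these 3 genes was called (limma adjusted p = 0.151 for each with the block).

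**Figure D4:**
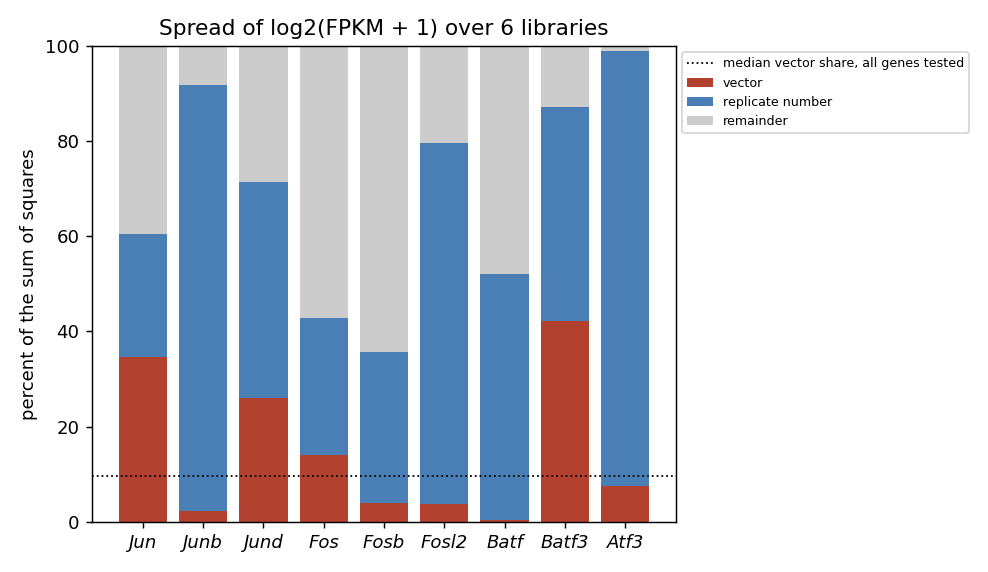
Percent of the sum of squares of log2(FPKM + 1) over 6 libraries that goes with the vector (Blimp-1 or empty MigR1), with the replicate number and with the remainder, for each of the 9 genes; the dotted line is the median vector share over all tested genes, 9.62%. Junb, Fosl2 and Atf3 are mostly replicate number, and Batf3 has the largest vector share at 42.3%.

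The 6 listed NFAT and IRF genes, which include known partners of AP-1 and BATF, were all expressed. Of these 6 genes 6 were tested and 0 were called in either direction without or with the block. Their median log2 fold change was 0.15, against -0.0077 over all tested genes. Nfat5, an NFAT relative that answers to osmotic stress, was the 1 gene of this list with no overlap, where 2.32% of tested genes were higher without overlap and 2.35% lower. It was at 24.5, 26.4 and 23.1 FPKM in Blimp-1 libraries, against 20, 21.5 and 15.1 FPKM in empty vector libraries (log2 fold change 0.38, limma adjusted p = 0.997, or 0.151 with the block). Irf4, the partner of BATF, was at 18.3, 19.3 and 15.7 FPKM with Blimp-1 and at 16.3, 14 and 11.8 FPKM with the empty vector, higher in 3 of 3 pairs (log2 fold change 0.33, limma adjusted p = 0.158 with the block).

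Other bZIP genes of the AP-1, ATF, CREB, Maf and Bach groups numbered 36, of which 29 were tested and 0 called in either direction by limma without or with the block. In 3 of 3 pairs 13 were higher and 2 lower, where 23% of all tested genes were higher and 22.8% lower. The median log2 fold change was 0.064, and whether the list differs from all genes was not tested. Creb3, an endoplasmic reticulum-anchored bZIP factor, was the 1 tested gene of this list lower without overlap, where 2.35% of all tested genes were. It was at 13.5, 14.5 and 11.6 FPKM with Blimp-1 and 15.1, 15.4 and 15.8 FPKM with the empty vector (log2 fold change -0.21, limma adjusted p = 0.997). In the MAP kinase list 9 genes were higher and 3 lower in 3 of 3 pairs, beside the same shares of all tested genes. This list had 24 of 25 genes tested, 0 called and a median of 0.058. Its Map2k2, a kinase that activates ERK, was at 28.1 to 29.7 FPKM with Blimp-1 and 30.6 to 32.2 FPKM with the empty vector (log2 fold change -0.098, limma adjusted p = 0.997). SRF and ternary complex factors, which drive Fos transcription, had 6 of 6 tested, 0 called and a median of 0.053. Turnover and coactivator genes of AP-1 had 9 of 9 tested, 0 called and a median of -0.012.

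Other immediate-early genes had 14 of 16 tested, 0 called without or with the block, and a median of -0.041. In 3 of 3 pairs 3 of them were higher and 2 lower, where 23% and 22.8% of all tested genes were. Target genes of AP-1, NFAT and BATF in T cells had 12 of 26 tested. The other 14, among them the cytokine genes Il2, Il4, Il10, Il21 and Ifng, did not reach the filter. With the block 1 target gene rose, Prdm1, the gene the vector carries. Tnf, which encodes an inflammatory cytokine, was the 1 tested target lower with Blimp-1 without overlap, where 2.35% of all tested genes were. It was at 2.59, 4.04 and 3.68 FPKM with Blimp-1 against 4.42, 4.91 and 31.5 FPKM with the empty vector (log2 fold change -1.21, limma adjusted p = 0.997, or 0.248 with the block). Its highest value was in empty vector replicate 3, the library in which Fos was highest too. Of the 12 tested targets, 5 were higher and 2 lower with Blimp-1 in 3 of 3 pairs, where 23% and 22.8% of all tested genes were. The median log2 fold change of the targets was 0.096. The targets with the highest mean FPKM were Ctla4, Gzmb and Il2ra. Ctla4, which encodes an inhibitory receptor, was at 208, 212 and 190 FPKM in Blimp-1 replicates 1 to 3, against 182, 195 and 155 FPKM in empty vector replicates 1 to 3 (log2 fold change 0.20). Gzmb, the gene of the protease granzyme B, was at 121, 111 and 109 FPKM with Blimp-1, against 161, 65.8 and 262 FPKM with the empty vector (-0.31). Il2ra, which encodes the alpha chain of the IL-2 receptor, was at 89.9, 112 and 122 FPKM with Blimp-1, against 103, 112 and 196 FPKM with the empty vector (-0.29). Values of Blimp-1 and empty vector libraries overlapped for each of these 3 genes, and none was called (limma adjusted p = 0.997 for each).

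**Figure D5:**
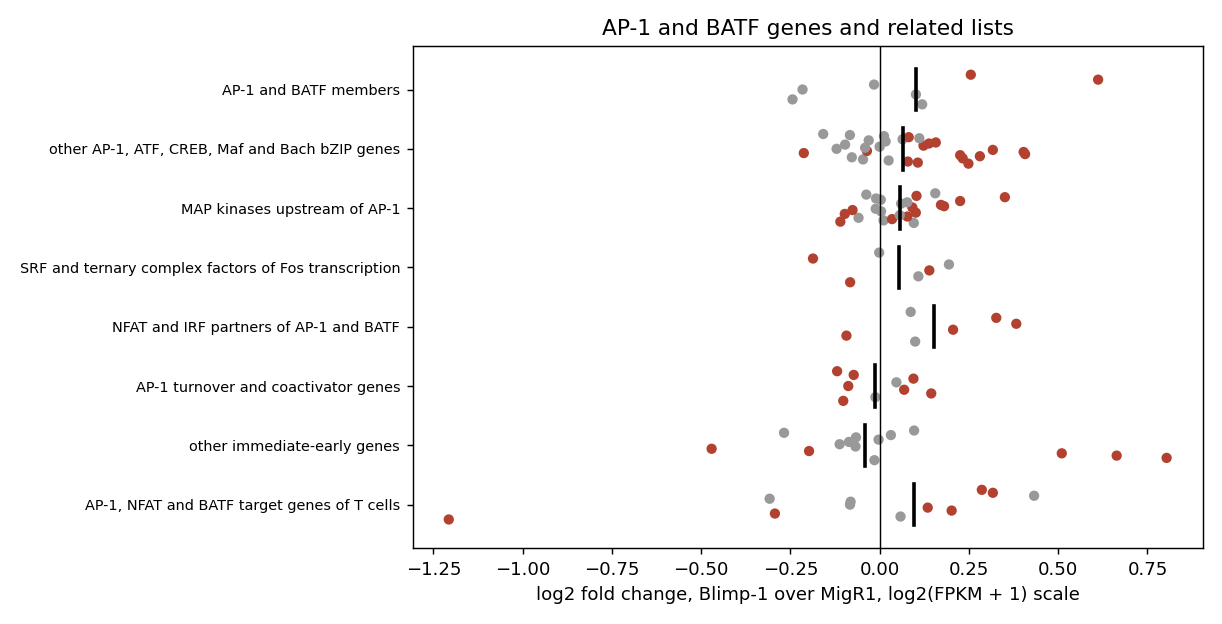
Log2 fold change, Blimp-1 over empty MigR1, of tested genes in the AP-1 and BATF family and 7 related lists; red points had the same direction in 3 of 3 pairs, and a bar marks each list's median. Prdm1 (2.26) is outside the axis and not drawn, although the median of the target genes counts it. List medians lie between -0.041 and 0.15.

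The genes whose pattern over the 6 libraries was most like that of Fos were Syvn1 (Pearson r of log2 values 0.997), Cct6a (0.987), Txndc11 (0.984) and Ptbp1 (0.983). For Junb they were a row listed as EIF3C/EIF3CL (0.994), Acbd6 (0.992), Dpf2 (0.988) and Pex5 (0.987), and for Batf they included Rapgef4 (0.99), Phldb3 (0.987) and Gmfg (0.979). They were among the 4 highest correlations for each gene over 8053 candidates, the points share their vectors and replicate pairs, and the values are descriptions of 6 libraries. Fos was below the filter and above 1 FPKM only in empty vector replicate 3. Its correlations therefore rest largely on that library, which also stood apart on the first principal component.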

How the data were processed

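The authors deposited 1 table of FPKM values for 29868 RefSeq transcripts in 6 libraries. Its header does not name the unit, which was read from the values and the tools. Per the submitters' processing notes the tools were CASAVA 1.8.2, Cufflinks 2.2 and Partek 6.6, with build mm9. Per the labels' protocols, a TruSeq kit was used on 2 ug of RNA and 50 cycles were read, single end. The sources used here give no aligner, annotation release or strand setting.

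FPKM was summed per symbol, case ignored, with 546 of 1138 rows that lacked a symbol named by RefSeq accession. Genes that reached 1 FPKM in 3 of the 6 libraries or more, 10778 in all, were tested by limma 3.58.1 (R 4.3.3) on log2(FPKM + 1), two-sided, with a mean-variance trend and Benjamini-Hochberg adjustment at 0.05, and fold changes on this scale understate low genes. Same-numbered libraries deviated together (r = 0.763, 0.801 and 0.661), so the numbers were taken as pairs in a second fit with a replicate block. The fits were tested on simulated data that held no replicate effect, so the blocked fit was not tested under pairing. Depth assumes GENCODE M21 transcript lengths, and read numbers are approximate and cover counting only. Of the low values used for it, 45.2% to 54.1% lay within 0.1 of a whole read, so the steps are blurred.

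All 9 genes were named. From the other lists those called in either fit were named, with up to 3 without overlap at a mean of 5 FPKM or more. Irf4, Nr4a1, Nr4a2, Nr4a3, Egr1, Dusp2, Btg2, Ctla4, Gzmb, Il2ra, Fosl1, Batf2, Jdp2 and untested cytokine genes were added after their values were seen. The genes and lists were chosen with earlier results of these data known. A gene among those most like Batf is not reported here.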

Additional observations from a re-analysis of the deposited data

How the results depend on the processing

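Over 18 alternative settings, no gene of the family was called lower, and members called higher numbered 0 except for 2 (Batf3 and Fosl2) with the replicate block and replicate 3 left out. Over all genes, called higher and lower numbered 0 and 0 in the fit reported, 1 and 1 with the replicate block, and 1 and 0 with median centring. Leaving out single libraries gave 0 to 1 higher and 0 lower. The blocked fit called 1 and 2 without replicate 1, 1 and 3 without replicate 2, and 508 and 620 without replicate 3. Batf3 stayed positive (0.42 to 0.95), Jun (-0.42 to -0.12) and Jund (-0.34 to -0.061) negative. Signs turned for Batf with quantile normalization (0.0099), with single libraries left out (-0.14 to 0.11 over the 6) and in the blocked fit without replicate 1 (0.042) or 2 (0.075). Leaving out single libraries gave -0.17 to 0.27 for Junb, -0.091 to 0.39 for Fosl2 and -0.011 to 0.59 for Atf3. The blocked fit without replicate 1, 2 or 3 gave -0.0012, 0.23 and 0.075 for Junb. For Fosl2 it gave 0.016, 0.027 and 0.32, and for Atf3 0.33, 0.23 and 0.21. The cause was not tested. Atf3 has no value under a filter of 5 FPKM. Depth limits Fos and Fosb, with 5 to 75 reads.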

Other observations

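Of the 9 genes, 4 lie close to another of them. By RefSeq order on GRCm38.p6, used for order only, Batf3 and Atf3 sit on chromosome 1 with 1 protein-coding gene between them, Fam71a, which was listed at 0 in all 6 libraries. Fos and Batf sit on chromosome 12 with Jdp2, the gene of a bZIP repressor that pairs with Jun proteins, between them. Jdp2 was at 9.77, 6.21 and 3.75 FPKM in Blimp-1 replicates 1 to 3, against 7.53, 6.21 and 2.58 FPKM with the empty vector. Its log2 differences were 0.34, 0.0010 and 0.41 in pairs 1 to 3, nearly equal in pair 2, and it was not called (log2 fold change 0.25, limma adjusted p = 0.243 with the block).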
